A study of Rattus norvegicus with 12 samples.

Results

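ABC transporters are membrane pumps that use ATP to move lipids, drug and bile pigment conjugates, peptides, heme precursors and other cargo across a membrane. A few relatives instead regulate potassium channels or work on ribosomes as soluble proteins. In the kidney cortex the family is best known for the apical efflux pumps of the proximal tubule, such as Abcc2, Abcc4 and Abcg2, which pass organic anions, urate and xenobiotics into the urine, and for the sterol exporters Abca1 and Abcg1. The members described here were all probe sets whose array annotation names 1 gene with a symbol of Abc, a letter from a to g and a digit. There were 50 of them among 31042 probe sets outside the array controls, and they named 37 of 14217 genes.

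Signals were measured in renal cortex of male rats, described as littermates, on 12 arrays in 4 groups of 3. Diabetic rats of 10 weeks (DM) had received streptozocin, a toxin of the pancreatic beta cells, at 65 mg/kg intravenously at 4 weeks of age, and nondiabetic rats of 10 weeks (ND) had received vehicle at that age. Diabetic rats of 20 weeks had the same dose at 14 weeks of age, and nondiabetic rats of 20 weeks vehicle. A pellet followed after 3 days, with insulin palmitate in diabetic rats and palmitate vehicle in nondiabetic rats, and tissue was taken after 6 weeks, with blood glucose given as 350 to 450 mg/dl in diabetic rats. Streptozocin and the insulin pellet went with diabetes, so their effects and those of diabetes cannot be told apart. The label of diabetic replicate 1 of 10 weeks names a vehicle pellet, and nondiabetic replicate 1 of 20 weeks stood apart in the control ratios below. The calls of ABC genes are therefore also given without these 2 doubted arrays, while those of companion and marker genes rest on all 12 arrays.

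The 12 arrays correlated with each other between 0.941 and 0.976 over the probe sets tested, and no array lacked proximal tubule markers, whose summed signal lay between 102955 and 121349. For the Gapdh control probe sets, the 3' over 5' signal, a measure of RNA integrity, was 2.09 on nondiabetic replicate 1 of 20 weeks. It was 1.6, 1.68 and 1.75 on the 3 diabetic arrays of 20 weeks, and between 1.41 and 1.54 on all others. That of beta-actin was 11.37 and 10 on diabetic replicates 2 and 3 of 20 weeks and 11.19 on nondiabetic replicate 1 of 20 weeks, against 6.3 to 8.57 on the other 9 arrays. The tissue is a mixture of cell types, so fewer cells of a type and less RNA per cell cannot be told apart in any of the differences below. The labels do not say that each array is a separate rat, so p-values cover only the spread among these 12 arrays, part of which may be technical.

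Of the 50 probe sets, 40 passed the filter on dim signals (a geometric mean over all 12 arrays above 70.9) and were tested, and they covered 31 genes. A geometric mean of at least 200 was reached by 27 probe sets of 24 genes, which are called well measured. The 10 dim probe sets were those of Abcb9, Abcb11, Abcd2, Abcg4, Abcg5 and Abcg8, and 1 further probe set each of Abca1, Abca8, Abcc5 and Abcc9. Abcb11, the bile salt export pump of the liver, lay between 30.4 and 171.1, and the sterol exporters Abcg5 and Abcg8 lay between 4 and 71.3 and between 4.2 and 64.8. No detection calls were used here, so a dim signal sets no statement about whether the gene was expressed. Few members passed the test. Abca8a was higher in diabetic rats over both ages and at 20 weeks, Abcc2 was higher at 20 weeks, and no member was lower in a limma test adjusted over all 18625 probe sets.

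**Figure D1:**
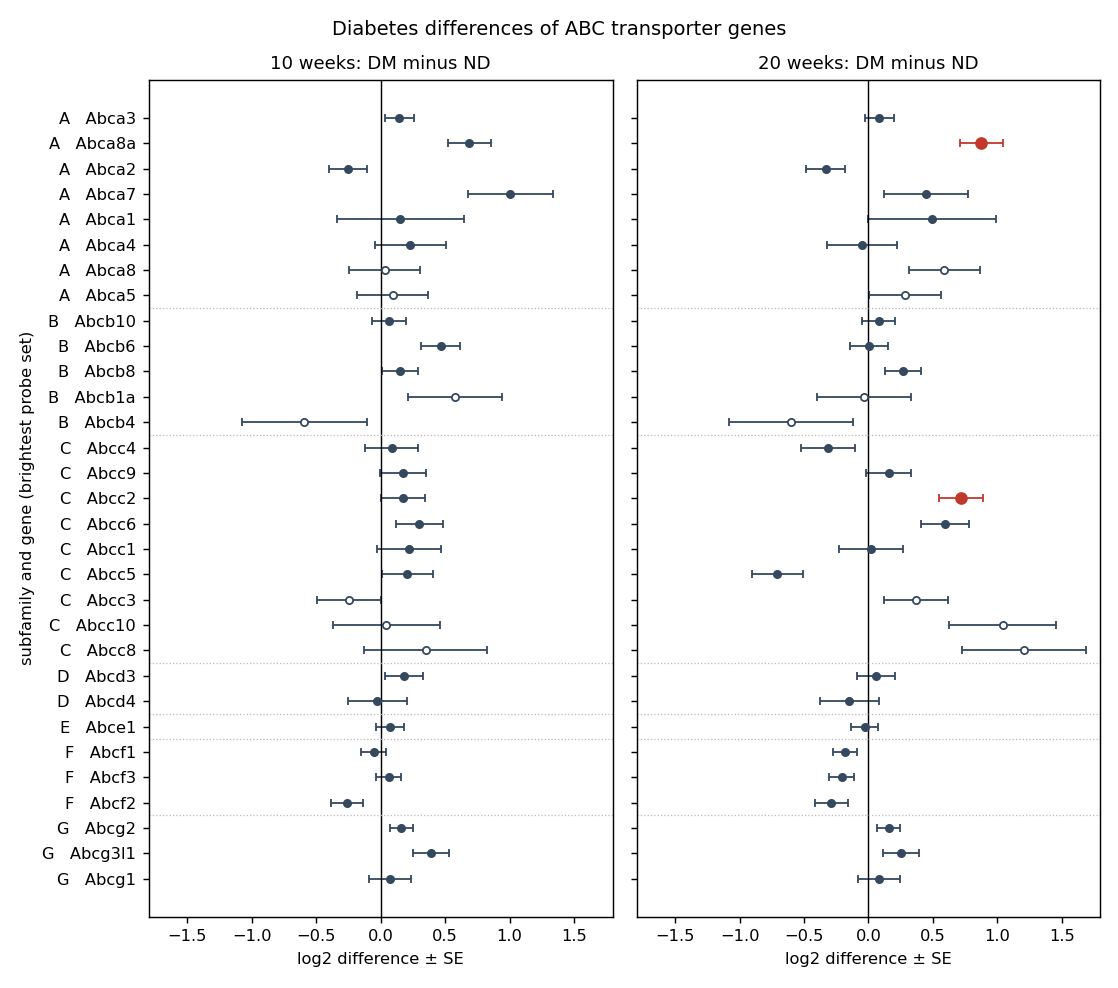
Log2 difference (x axis), diabetic minus nondiabetic, of the brightest probe set of each of the 31 tested genes, by subfamily (rows), at 10 weeks (left) and 20 weeks (right); bars are the standard error (SE) of the limma fit, open points are genes that are not well measured, and red marks an adjusted p under 0.05. Red appears at 20 weeks alone, for Abca8a and Abcc2.

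Diabetes was first compared as the mean of the differences at both ages. There 1 of 40 ABC probe sets was called higher (2.5%) and none lower, against 4.47% of all probe sets tested, 2.14% higher and 2.34% lower, and 10 had an unadjusted p under 0.05, which is 25% of them against 17.9% of all. The members' median difference was 0.12 on the log2 scale, against -0.01 for all probe sets, and 28 lay above 0 and 12 below. At 10 weeks none of the 40 was called by limma, against 0.306% of all, 0.123% higher and 0.183% lower, and 4 had an unadjusted p under 0.05 (10%, against 10.9% of all). At 20 weeks 2 were called higher (5%) and none lower, against 2.84% of all, 1.22% higher and 1.62% lower, and 10 had an unadjusted p under 0.05 (25%, against 16.8% of all). With 40 probe sets, these shares rest on a few genes each.

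The arrays of the age groups are separate, so the directions at 10 and 20 weeks can be set side by side, although both rest on the same pooled variance. The sign was the same at both ages for 29 of 40 ABC probe sets (72.5%), with 22 higher and 7 lower in diabetic rats, and for 57.2% of all probe sets tested. Among the 27 well-measured ones it was the same for 22. The difference between the ages (the 10-week difference less the 20-week one, or interaction) was called by limma for none of the 40, and for 0% of all probe sets, and 3 of the 40 had an unadjusted p under 0.05 (7.95% of all).

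**Figure D2:**
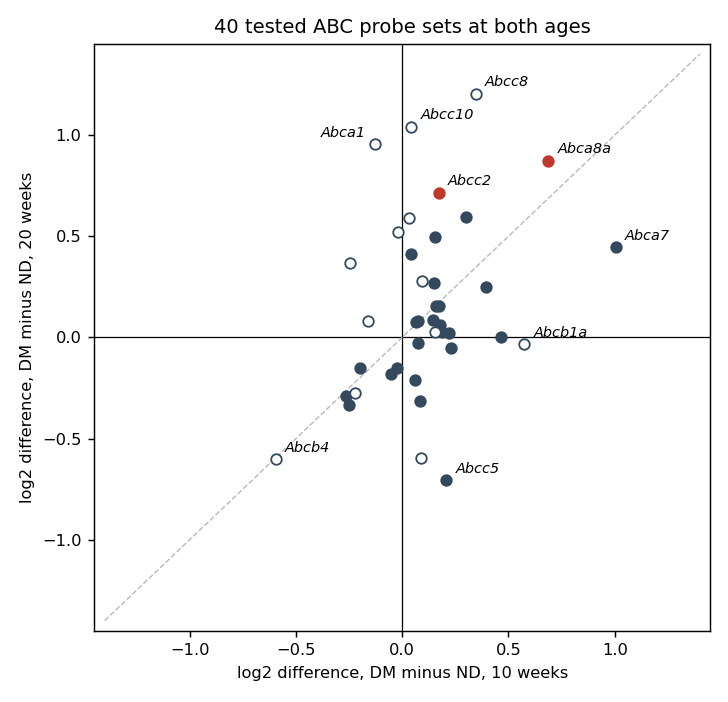
Log2 difference between diabetic and nondiabetic rats at 10 weeks (x axis) and at 20 weeks (y axis) for the 40 tested ABC probe sets, 1 point each; open points are not well measured, red marks an adjusted p under 0.05 at 20 weeks, and the dashed line marks equal differences. 22 points lie above 0 at both ages and 7 below, with Abcc5 at 0.21 and -0.71.

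Subfamily A holds large lipid transporters. Of its 13 probe sets 11 were tested, for 8 genes, and 8 were well measured. Abca8a belongs to a cluster of related A genes and its human relative ABCA8 has been linked to cholesterol efflux. In the RefSeq gene table it stands next to Abca8, with 0 protein-coding genes between them. The signal of Abca8a was 1373.4, 1662.2 and 1483.3 in diabetic rats of 10 weeks and 874.6, 905 and 1024.6 in nondiabetic rats of 10 weeks. It was 1401.7, 2051.8 and 2510.4 in diabetic rats of 20 weeks and 1036.7, 1102.1 and 1026.4 in nondiabetic rats of 20 weeks. All diabetic arrays lay above all nondiabetic arrays at each age, and the diabetic arrays of 20 weeks were spread more widely than any other group.

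Over both ages Abca8a rose 1.72-fold in diabetic rats (log2 0.78 ± 0.12 SE, limma adjusted p = 0.00281). At 20 weeks it rose 1.83-fold (0.87 ± 0.17, adjusted p = 0.017), with means of 1988 ± 557 in diabetic and 1055 ± 41 in nondiabetic rats (SD, n = 3 each). At 10 weeks the difference was 0.69 ± 0.17 and did not pass (adjusted p = 0.131), with means of 1506 ± 146 and 934.7 ± 79.3. The interaction was -0.19 ± 0.24 (adjusted p = 0.866), so no difference between the ages was detectable, within a 95% interval from -0.70 to 0.33. The call over both ages held under all 20 alternatives run for it, with adjusted p between 0.000297 and 0.0154. The call at 20 weeks was lost without diabetic replicate 2 (0.83, adjusted p = 0.0684) or 3 (0.69, adjusted p = 0.0583) of that age, without both doubted arrays (0.86, adjusted p = 0.0605), without an intensity trend in the variance (adjusted p = 0.0558) and with those groups fitted alone (adjusted p = 0.0616). Those replicates 2 and 3 also had the high beta-actin ratios given above, and all 3 diabetic arrays of 20 weeks had Gapdh ratios of 1.6 to 1.75. The part of RNA quality in the difference was not tested.

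Markers of other cell types differed beside it. Over both ages the podocyte genes Nphs1 (-0.48 ± 0.10, adjusted p = 0.0157) and Ptpro (-0.40 ± 0.10, adjusted p = 0.0339) and the endothelial gene Vwf (-1.78 ± 0.34, adjusted p = 0.0114) fell, 2 of 5 and 1 of 6 tested. The collecting duct water channel Aqp2 (0.55 ± 0.09, adjusted p = 0.00391) and the macrophage receptor Csf1r (0.36 ± 0.09, adjusted p = 0.0453) rose, 1 of 6 and 1 of 5 tested, and Aqp2 was also called at 10 weeks (0.68 ± 0.12, adjusted p = 0.0433). No tested marker of the proximal tubule (9), loop of Henle and distal tubule (5), smooth muscle (7), fat (3) or erythroid cells (2) was called over both ages by limma, with 4, 2, 1, 1 and 0 at an unadjusted p under 0.05. Of all probe sets tested, 2.14% were called higher and 2.34% lower over both ages, and 17.9% had an unadjusted p under 0.05. At 10 weeks 0.306% of all were called. At 20 weeks the summed signal of the fat markers, with 3 of 5 above the dim limit and Lep and Plin1 below it, was 1012 to 1840 in diabetic and 599 to 792 in nondiabetic rats. That of the endothelial markers, 6 of 7 measured, was 6223 to 6904 in diabetic and 7186 to 8671 in nondiabetic rats. The collecting duct markers (6 of 6 tested) summed to 14713 to 16347 in diabetic and 12940 to 13370 in nondiabetic rats. Singly, 3 of these 6 markers lay above 0 and 3 below at that age, between -0.287 and 0.825, so the sum does not describe each of them. The podocyte markers (5 of 6 tested) summed to 4512 to 5030 in diabetic and 5526 to 6000 in nondiabetic rats. For smooth muscle and pericyte markers (7 of 8 tested) it was 2648 to 3432 against 2232 to 2835, and for leukocyte markers (5 of 7 tested) 16521 to 23607 against 11698 to 21142. At that age the sums did not overlap for fat, endothelial, collecting duct and podocyte markers, and overlapped for the other 5 of the 9 marker lists. At 10 weeks the sums of all 9 lists overlapped, with 4681 to 6121 in diabetic and 5970 to 6705 in nondiabetic rats for podocyte markers. Of all single probe sets tested, 20.9% did not overlap at 20 weeks and 17% at 10 weeks. The part of a shift in cell types in the Abca8a difference was not tested.

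The neighbour Abca8 is not well measured. Its tested probe set had 178.3, 195.2 and 131.1 in diabetic and 133.5, 117.4 and 85.8 in nondiabetic rats of 20 weeks, which overlap by the values near 131 to 134, and gave 0.59 ± 0.28 (adjusted p = 0.306). The dim probe set of Abca8, which was not tested, went the other way at that age without overlap. It had 3.9, 20.1 and 13.1 in diabetic and 38.7, 28.6 and 35.8 in nondiabetic rats. Probe sequences were not used here, so signal shared between these relatives cannot be told apart. Abca3, which loads surfactant lipids into lamellar bodies in the lung, was not called on either probe set. Its brighter probe set had 1548, 1521.7 and 1830 in diabetic and 1603.4, 1383.6 and 1632.1 in nondiabetic rats of 20 weeks, and 1622.5, 1785.7 and 1470 in diabetic and 1645.8, 1391.4 and 1381.9 in nondiabetic rats of 10 weeks. The groups overlapped at each age, and the difference over both ages was 0.11 ± 0.08, with a 95% interval from -0.06 to 0.29. Its second well-measured probe set had 648.4, 743 and 708.9 in diabetic and 616, 617 and 608.5 in nondiabetic rats of 10 weeks, without overlap (0.19 ± 0.10, adjusted p = 0.534), and overlapped at 20 weeks (0.03 ± 0.10). It was also the 1 member lower without overlap in nondiabetic rats of 20 weeks, at 562.9, 573.6 and 578.6, than in those of 10 weeks (-0.10 ± 0.10, adjusted p = 0.783).

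Abca7, Abca2 and Abca1 were chosen for description after their values were seen. Abca7, a phospholipid transporter with a part in phagocytosis, had 943.9, 720.7 and 670.9 in diabetic and 199.4, 424.7 and 665.5 in nondiabetic rats of 10 weeks, 2.01-fold, with no overlap although the highest nondiabetic and the lowest diabetic array nearly touched and replicate 1 of the nondiabetic rats was far below the other two. It did not pass at 10 weeks (1.01 ± 0.33, limma adjusted p = 0.273) or over both ages (0.73 ± 0.23, adjusted p = 0.109). Of the alternatives, only leaving out nondiabetic replicate 3 of 10 weeks, the highest nondiabetic array of that age, gave a call of Abca7 over both ages (0.93, adjusted p = 0.0164). Abca2, a lysosomal lipid transporter, gave -0.29 ± 0.10 over both ages (adjusted p = 0.152) and was called lower only without that same array (-0.38, adjusted p = 0.0281).

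Abca1, which hands cholesterol to apolipoprotein A-I, had 3 tested probe sets, and none passed in any comparison. The brightest had 523.8, 1190.2 and 1159.1 in diabetic and 664.1, 569.1 and 682.7 in nondiabetic rats of 20 weeks. It had 197.2, 471.8 and 802.4 in diabetic and 191, 522.2 and 544.3 in nondiabetic rats of 10 weeks, so the groups overlapped at both ages, and replicate 1 was the lowest in every group but the nondiabetic rats of 20 weeks. At 20 weeks the 3 probe sets gave 0.49 ± 0.49, 0.41 ± 0.30 and 0.95 ± 0.44, none with an adjusted p under 0.05. Abca4, known as a retinoid transporter of photoreceptors, gave 0.09 ± 0.19 over both ages, the dim-lying Abca5 of lysosomes gave 0.19 ± 0.20, and the second probe set of Abca3 gave 0.11 ± 0.07.

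**Figure D3:**
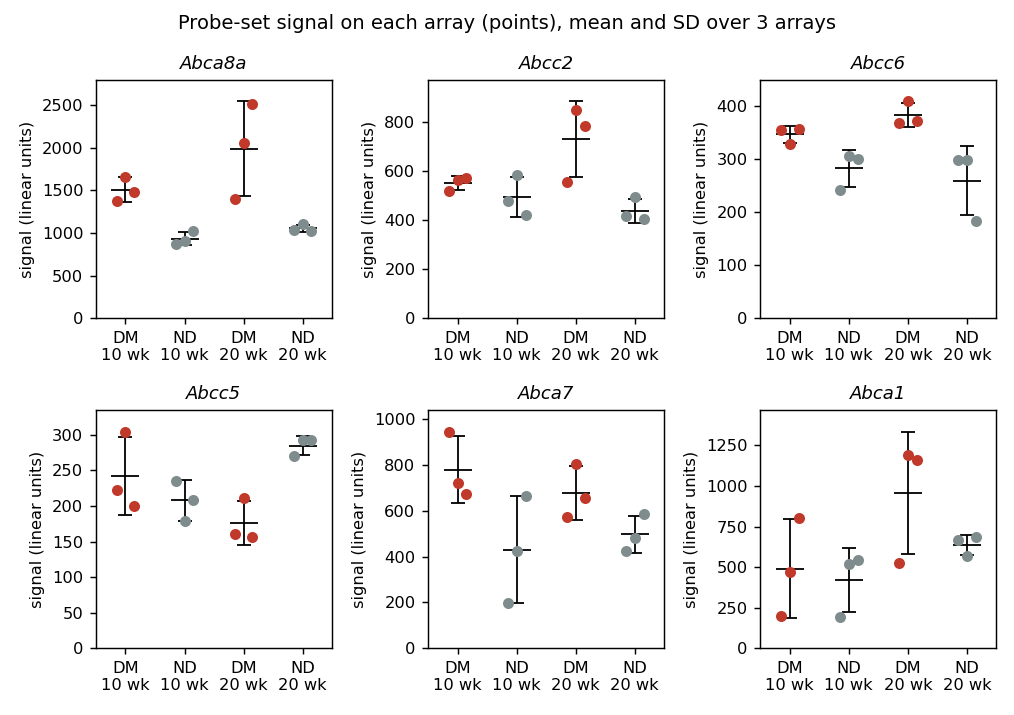
Probe-set signal in linear units (y axis, from 0) on each array (points, red for diabetic and grey for nondiabetic) in the 4 groups (x axis) for Abca8a, Abcc2, Abcc6, Abcc5, Abca7 and Abca1; the dash and bar are the mean and SD over 3 arrays. Abca8a is higher on every diabetic array at each age, and Abcc2 at 20 weeks.

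Subfamily C holds the multidrug resistance-associated pumps of organic anions and the sulfonylurea receptors. Of its 12 probe sets 10 were tested, for 9 genes, of which 6 were well measured. Abcc2, or Mrp2, is an apical pump that sends glutathione, glucuronide and sulfate conjugates into urine and bile. Its signal was 552.7, 847 and 782.1 in diabetic and 416.5, 493.1 and 401.9 in nondiabetic rats of 20 weeks, with every diabetic array above every nondiabetic array. In the younger animals it was 519.5, 560.7 and 569.3 in diabetic and 477.3, 581.8 and 418.7 in nondiabetic rats, which overlapped.

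At 20 weeks Abcc2 rose 1.64-fold in diabetic rats (0.72 ± 0.17, limma adjusted p = 0.0421), with means of 727.3 ± 155 in diabetic and 437.2 ± 49 in nondiabetic rats (SD, n = 3 each). At 10 weeks it gave 0.17 ± 0.17 (adjusted p = 0.759), and over both ages 0.44 ± 0.12 (adjusted p = 0.0561). The interaction was -0.55 ± 0.24 and did not pass (unadjusted p = 0.0402 and adjusted p = 0.607, limma), so a difference between the ages was not shown. The call at 20 weeks held in 8 of 21 alternatives, with values between 0.60 and 0.90 and adjusted p between 0.016 and 0.156. Of single arrays, leaving out nondiabetic replicates 2 or 3 of 10 weeks or diabetic replicate 1 of 20 weeks kept it, and leaving out any of the other 9 lost it, with adjusted p between 0.0530 and 0.156. It was also lost without both doubted arrays (0.68, adjusted p = 0.127). Diabetic replicates 2 and 3 of 20 weeks, the highest arrays for Abcc2, also had the high beta-actin ratios given above. All 3 diabetic arrays of that age had Gapdh ratios of 1.6 to 1.75. The part of RNA quality in the Abcc2 difference was not tested.

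The promoters of Abcc2, an apical pump that was called, and of Abcg2, an apical pump that was not, are shown side by side. Each spans 250 bases before to 50 after the start site in RefSeq (build GRCr8, plus strand), and 30 of the 37 genes had such a sequence. Abca8a is not among them. Capitals mark matches on either strand to AGGTCA (a nuclear receptor motif), TGACNNNGC (the antioxidant response element core), GGGCGG (GC box), CCAAT and TATAAA.
Abcc2, chr1:252613625-252613924: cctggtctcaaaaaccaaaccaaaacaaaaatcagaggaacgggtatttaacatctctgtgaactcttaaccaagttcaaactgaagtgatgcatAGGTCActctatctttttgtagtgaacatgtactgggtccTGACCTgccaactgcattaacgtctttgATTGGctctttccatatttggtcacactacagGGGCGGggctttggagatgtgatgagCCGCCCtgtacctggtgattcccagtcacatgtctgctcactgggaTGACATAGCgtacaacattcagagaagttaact
Abcg2, chr4:89075224-89075523: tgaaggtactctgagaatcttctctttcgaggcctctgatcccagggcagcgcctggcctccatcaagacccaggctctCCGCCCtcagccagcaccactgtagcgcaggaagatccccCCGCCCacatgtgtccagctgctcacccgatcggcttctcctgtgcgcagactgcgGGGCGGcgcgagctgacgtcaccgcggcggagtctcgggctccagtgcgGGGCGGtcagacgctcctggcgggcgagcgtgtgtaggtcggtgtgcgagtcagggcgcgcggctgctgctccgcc
The Abcc2 window held AGGTCA at -155 on the plus strand and at -115 on the minus strand, counting the start base as 0, and 1 TGACNNNGC at 17, 2 GC boxes and 1 CCAAT box. The Abcg2 window held 4 GC boxes and none of the others, with a GC content of 68% against 44.7% for Abcc2. AGGTCA was present in 16.2% of 33469 promoters of this length and in 5 of 30 members, TGACNNNGC in 12.1% and 5 of 30, GGGCGG in 33.1% and 21 of 30, CCAAT in 37.5% and 11 of 30, and TATAAA in 14.2% and 4 of 30. A match describes these letters and is not evidence of a site in use.

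Abcc4, or Mrp4, carries urate, cyclic nucleotides and organic anions. It had 2363.1, 1602.6 and 1695.9 in diabetic and 2279.2, 2518.8 and 2149.4 in nondiabetic rats of 20 weeks, and 1920.6, 1666.3 and 1426.6 in diabetic and 2245.1, 1226.9 and 1386.7 in nondiabetic rats of 10 weeks. The groups overlapped at each age, and the differences were -0.31 ± 0.21 at 20 weeks (95% interval -0.76 to 0.13) and 0.09 ± 0.21 at 10 weeks (-0.36 to 0.53). Abcc9, the sulfonylurea receptor of vascular smooth muscle, had 791.5, 890.3 and 657.9 in diabetic and 843.6, 668.9 and 594.5 in nondiabetic rats of 20 weeks. At 10 weeks it had 1102.4, 772.5 and 693.7 in diabetic and 726.1, 762.4 and 744.1 in nondiabetic rats, again with overlap, and over both ages it gave 0.16 ± 0.12 (95% interval -0.11 to 0.44).

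Abcc5 and Abcc6 were chosen after their values were seen. Abcc6, which in liver and kidney leads to ATP release and so to the mineralization inhibitor pyrophosphate, had 368.8, 409.4 and 371.9 in diabetic and 297.9, 298.3 and 183.8 in nondiabetic rats of 20 weeks. At 10 weeks it had 356.3, 328.7 and 357.1 in diabetic and 243, 306.7 and 299.9 in nondiabetic rats, so the arrays did not overlap at either age. The difference was 0.45 ± 0.13 over both ages and did not pass (adjusted p = 0.079). Abcc5, an exporter of cyclic nucleotides and other organic anions, was the well-measured member furthest below 0 at 20 weeks. Its brighter probe set had 161.1, 211 and 155.8 in diabetic and 269.6, 292.1 and 292.2 in nondiabetic rats of 20 weeks, without overlap, and gave -0.71 ± 0.20 (adjusted p = 0.078). At 10 weeks it had 222.5, 304.4 and 200 in diabetic and 235.2, 179 and 208.9 in nondiabetic rats and gave 0.21 ± 0.20. Its interaction of 0.91 ± 0.28 had the lowest unadjusted p of the family in that comparison (limma, 0.00593) and an adjusted p of 0.495. The dim probe set of Abcc5, which was not tested, went the other way at each age, with overlapping arrays. It averaged 94.81 in diabetic and 75.82 in nondiabetic rats of 20 weeks, and 44.8 and 75.7 in those of 10 weeks. Of the rest of the subfamily, Abcc1 gave 0.12 ± 0.17 over both ages, and the dimmer probe sets of Abcc3, Abcc8, Abcc10 and the second of Abcc9 lay between 0.06 and 0.78, none of them called. At 20 weeks Abcc8 (1.205 ± 0.479, limma adjusted p = 0.225, without overlap) and Abcc10 (1.042 ± 0.415, adjusted p = 0.226, with overlap) had the largest differences of the family. Abcc3 gave 0.37 ± 0.249 and the second probe set of Abcc9 0.523 ± 0.235 at that age, both with overlap and not called.

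Subfamily G holds sterol exporters and the breast cancer resistance protein Abcg2, an apical pump of urate and xenobiotics. Of its 8 probe sets 5 were tested, for 3 genes, all well measured by their brightest probe set. Abcg2 had 6366.8, 6127.4 and 5738.7 in diabetic and 4866.4, 5520.1 and 5978.1 in nondiabetic rats of 10 weeks, and 6670.1, 5873.2 and 5665.8 in diabetic and 5719.4, 5193.3 and 5392.6 in nondiabetic rats of 20 weeks. The groups overlapped at each age, by 1 array at 20 weeks. The difference was 0.16 ± 0.06 over both ages (adjusted p = 0.211), with a 95% interval from 0.02 to 0.30. Its age difference in nondiabetic rats was -0.001 ± 0.091.

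Abcg3l1, a rodent relative of Abcg2 whose near-identical neighbours may share its probes, had 976.9, 1239.2 and 993.6 in diabetic and 754.7, 957.6 and 737.2 in nondiabetic rats of 10 weeks, without overlap. It had 813, 924.5 and 1060.6 in diabetic and 771.3, 841.3 and 731.3 in nondiabetic rats of 20 weeks, where the lowest diabetic array fell below the highest nondiabetic array. Over both ages it gave 0.32 ± 0.10 and did not pass (adjusted p = 0.0917). Abcg1, which loads cholesterol onto high-density lipoprotein, gave 0.08 ± 0.12 over both ages on its bright probe set, and its dimmer probe sets gave -0.25 ± 0.26 each.

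**Figure D4:**
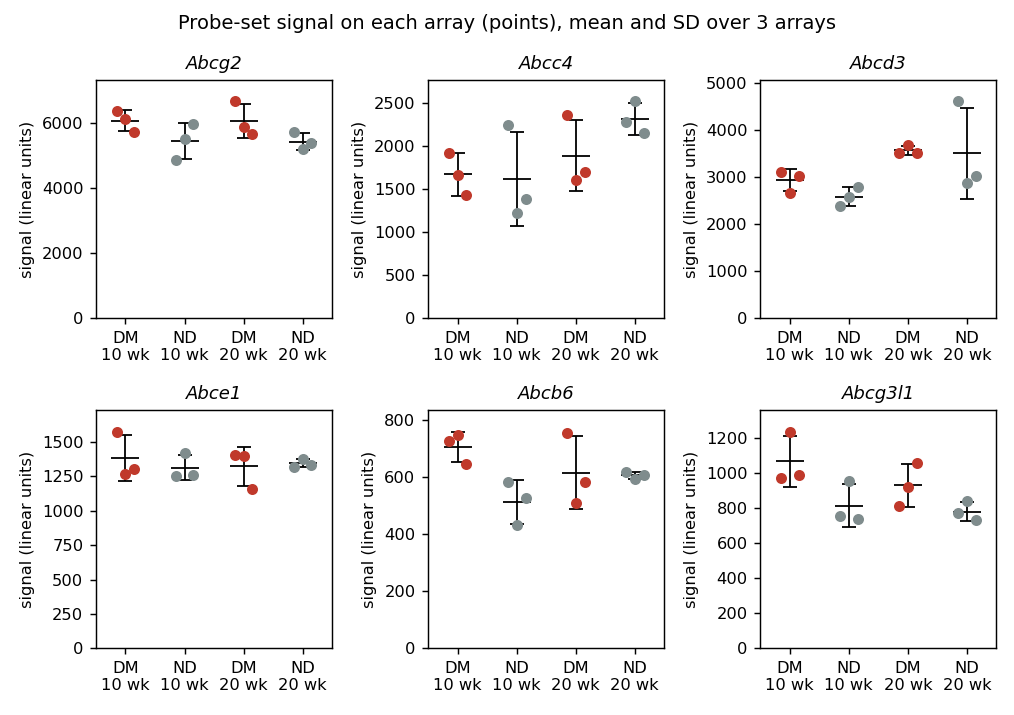
Probe-set signal in linear units (y axis, from 0) on each array (points, red for diabetic and grey for nondiabetic) in the 4 groups (x axis) for Abcg2, Abcc4, Abcd3, Abce1, Abcb6 and Abcg3l1; the dash and bar are the mean and SD over 3 arrays. None of the 6 was called in any comparison, and Abcg2 runs from 4866.4 to 6670.1 over all 12 arrays.

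Subfamily B holds full multidrug pumps, bile lipid pumps and transporters of mitochondria. Of its 9 probe sets 7 were tested, for 5 genes, of which the 3 mitochondrial ones were well measured. Abcb10, of the inner mitochondrial membrane and needed for heme synthesis, had 1103.2, 987.1 and 877.4 in diabetic and 1049.2, 847.7 and 912.7 in nondiabetic rats of 20 weeks. It had 855.7, 914.7 and 974.1 in diabetic and 794.3, 814.2 and 1030.4 in nondiabetic rats of 10 weeks, and gave 0.07 ± 0.09 over both ages, with overlap at each age, while its dimmer probe set gave -0.18 ± 0.15. Abcb6, a porphyrin transporter, had 725.6, 744.4 and 644.6 in diabetic and 583.5, 431.4 and 524.3 in nondiabetic rats of 10 weeks, without overlap, and gave 0.47 ± 0.15 (adjusted p = 0.268). At 20 weeks it had 754.2, 508.8 and 581.7 in diabetic and 615.4, 593.4 and 605.7 in nondiabetic rats, with overlap, and gave 0.00 ± 0.15. Its interaction of 0.46 ± 0.21 did not pass (adjusted p = 0.629). Abcb8, of the inner mitochondrial membrane, gave 0.21 ± 0.10 over both ages (adjusted p = 0.286).

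Abcb1a, a P-glycoprotein gene, lay below the well-measured limit, with 276, 177 and 108.7 in diabetic and 238.4, 145.8 and 163.7 in nondiabetic rats of 20 weeks, and 280.2, 231.9 and 173.5 in diabetic and 149, 101 and 226.5 in nondiabetic rats of 10 weeks. Arrays of each group were spread over those of the other at each age, and its probe sets gave 0.27 ± 0.26 and -0.04 ± 0.34 over both ages. Abcb4, the phosphatidylcholine pump of bile, gave -0.60 ± 0.34 (adjusted p = 0.399) on a probe set with signals between 35.3 and 160.

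Subfamily D moves fatty acids and cobalamin in peroxisomes and lysosomes. Abcd3, a major protein of the peroxisomal membrane, had 3509.4, 3688.3 and 3513.6 in diabetic and 4611, 2886.1 and 3016.3 in nondiabetic rats of 20 weeks, and 3099.7, 2667.5 and 3027.3 in diabetic and 2384.4, 2585.3 and 2792.8 in nondiabetic rats of 10 weeks. It gave 0.12 ± 0.10 over both ages (95% interval -0.10 to 0.34), with overlap at each age, and nondiabetic replicate 1 of 20 weeks, the array with the highest Gapdh ratio, was the highest of all 12. Without that array it gave 0.23 ± 0.06 over both ages (adjusted p = 0.0718). Abcd4, which takes part in lysosomal cobalamin release, had 390.8, 468.5 and 290.5 in diabetic and 320.5, 415.1 and 546.4 in nondiabetic rats of 20 weeks and gave -0.09 ± 0.16 over both ages.

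Subfamilies E and F hold soluble proteins of translation that carry no membrane part. Abce1, which splits ribosomes after termination, had 1403.6, 1399.1 and 1161.5 in diabetic and 1320.8, 1377.4 and 1335.2 in nondiabetic rats of 20 weeks, and 1574.8, 1270.2 and 1304.5 in diabetic and 1255.1, 1415.9 and 1262.5 in nondiabetic rats of 10 weeks. It gave 0.02 ± 0.08 over both ages, with a 95% interval from -0.14 to 0.19. Abcf1, which acts in translation initiation, had 1286.4, 1212.9 and 1420.3 in diabetic and 1591.9, 1439.3 and 1405 in nondiabetic rats of 20 weeks, which overlapped, and Abcf3 had 847.7, 797.5 and 890.8 against 1083, 941.9 and 912.5, which did not. At 20 weeks Abcf1 gave -0.18 ± 0.09, Abcf2 -0.29 ± 0.13 and Abcf3 -0.21 ± 0.10, all below 0 with adjusted p between 0.271 and 0.368. The second, dimmer probe set of Abcf3 gave 0.03 ± 0.21 at that age.

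Members that did not overlap between groups were counted against all probe sets tested. At 20 weeks 5 of 40 were higher on all diabetic arrays (12.5%, against 10.1% of all) and 4 lower (10%, against 10.9%). At 10 weeks 6 were higher (15%, against 7.47%) and none lower (0%, against 9.52%). Maturation was asked in nondiabetic rats, as 20 minus 10 weeks. No member was called by limma there, against 0% of all probe sets, and 6 had an unadjusted p under 0.05 (15%, against 8.61%). By overlap 7 members were higher on all nondiabetic arrays of 20 weeks (17.5%, against 6.36% of all) and 1 lower (2.5%, against 5.7%). They included Abcd3, with 0.41 ± 0.15 (adjusted p = 0.516) on all arrays and 0.19 ± 0.09 (adjusted p = 0.669) without nondiabetic replicate 1 of 20 weeks. Others were Abcf1 (0.21 ± 0.09, adjusted p = 0.578), Abcf3 (0.31 ± 0.10, adjusted p = 0.49) and Abcc5 (0.46 ± 0.20, adjusted p = 0.56). That same array was the highest of all 12 for Abcf1 and Abcf3. The rest were Abca1 on its brightest probe set (0.75 ± 0.495, adjusted p = 0.675), Abcb6 (0.25 ± 0.15, adjusted p = 0.654) and Abca8a (0.18 ± 0.17, adjusted p = 0.775). For Abca8a the arrays nearly touched, at 1026.4 against 1024.6. The Gapdh 3'/5' ratio was 2.09, 1.42 and 1.54 on the nondiabetic arrays of 20 weeks and 1.43, 1.46 and 1.41 on those of 10 weeks, and its part in these differences was not tested.

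Companion genes came from lists compiled from general knowledge, and a gene with several probe sets was represented by the brightest. Of 11 tested transcription factors known to act on ABC genes, 1 fell at 20 weeks and 10 did not pass, which is 9.09% called against 2.84% of all probe sets and 1.62% lower, with a median of -0.38 against -0.004 for all probe sets. The one that fell was Nr1h4, the bile acid receptor known to induce Abcc2 in liver. It averaged 1824.2 ± 201.8 in diabetic and 2741.4 ± 242 in nondiabetic rats of 20 weeks (SD, n = 3 each; -0.59 ± 0.12, adjusted p = 0.0277), and 2814.3 ± 274.3 and 2537.8 ± 403.1 in diabetic and nondiabetic rats of 10 weeks (0.16 ± 0.12, adjusted p = 0.696). Its interaction of 0.75 ± 0.18 did not pass (adjusted p = 0.4). Over both ages 1 of 11 fell (9.09%, against 2.34% of all called lower), Ppard (-0.60 ± 0.12, adjusted p = 0.0141), a fatty acid receptor. The sterol receptors Nr1h3 and Nr1h2 gave 0.11 ± 0.07 and 0.01 ± 0.08, and Nfe2l2, the factor of the antioxidant response, gave 0.08 ± 0.07, none of them called.

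The share of all probe sets called over both ages was 4.47%, with 2.14% higher. The Nrf2 and glutathione list holds antioxidant enzymes, those of glutathione synthesis and conjugation, and a sulfotransferase. Of its 14 tested genes 2 were called higher (14.3%), 12 did not pass, and none was called lower. The called genes were the sulfotransferase Sult1a1 (1.30 ± 0.16, adjusted p = 0.00101) and the glutathione transferase Gsta3 (0.90 ± 0.13, adjusted p = 0.00246). Among 11 organic anion and cation carriers 2 were called higher over both ages (18.2%) and none lower. They were the apical phosphate and urate carriers Slc17a1 (0.30 ± 0.06, adjusted p = 0.00754) and Slc17a3 (0.53 ± 0.09, adjusted p = 0.00435). Of the 11, 6 lay above 0 and 5 below. Slco1a1 averaged 147.2 ± 121 in diabetic and 1472.3 ± 837 in nondiabetic rats of 20 weeks and was not called (-3.63 ± 1.29, limma adjusted p = 0.172). In the peroxisomal list 1 of 17 rose (5.88%, near the share of all), Ehhadh (0.53 ± 0.10, adjusted p = 0.0135), an enzyme of peroxisomal beta-oxidation, beside Abcd3, which was not called.

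In the heme and iron-sulfur list, which bears on the mitochondrial B transporters, 2 of 14 rose over both ages and 1 fell, 21.4% in all against 4.47% of all probe sets. Cpox (0.41 ± 0.07, adjusted p = 0.00446) and Alad (0.27 ± 0.06, adjusted p = 0.0303) make porphyrins, and Glrx5 (-0.23 ± 0.05, adjusted p = 0.018) takes part in iron-sulfur cluster assembly. None of 10 cholesterol uptake and acceptor genes, 4 genes of a potassium channel list and 14 translation genes was called over both ages by limma. Of them 3 (30%), 1 (25%) and 2 (14.3%) had an unadjusted p under 0.05, against 17.9% of all. The smallest p-values of these lists belonged to Lpcat3 (-0.29 ± 0.08, adjusted p = 0.0694) and Cd36 (0.45 ± 0.16, adjusted p = 0.151), to Kcnj16 (0.24 ± 0.07, adjusted p = 0.0741) and Kcnj11 (-0.51 ± 0.27, adjusted p = 0.359), and to Hbs1l (0.40 ± 0.10, adjusted p = 0.0507) and Eif2s3 (0.24 ± 0.10, adjusted p = 0.242).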

How the data were processed

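Each deposited value is the intensity of a probe set, on a linear scale, from a 1-colour array of biotin-labelled cRNA. The authors used GCOS, per the submitters' processing notes, and no source read here gives its version or summary method. Every array had a mean of 500.2 after 2% was trimmed at each end, which shows a common scaling, so a difference reads against the rest of the array. Of 31099 probe sets, 57 controls were left out, 424 values below 1 were set to 1, and the 40% with the lowest mean log2 signal were dropped, leaving 18625. Names came from the array's annotation and, of 37 ABC genes, all 37 matched RefSeq. limma 3.58.1 in R 4.3.3 fitted 4 group means to log2 signal on all 12 arrays (8 residual degrees of freedom), with an intensity trend in eBayes, two-sided tests and Benjamini-Hochberg adjustment over all probe sets tested. A call is an adjusted p under 0.05, and ± is the SE of the fit beside a log2 difference and the SD beside a signal. The number of arrays limits the precision. The test was tried on simulated data. Described in full were members called in any of 5 comparisons and the 2 brightest well-measured genes of each subfamily. The members, lists and settings were chosen with earlier results of these data known. Alternatives changed the scaling, the filter, the offset (16), the variance trend, the replicate block and the arrays included. Apart from the brightness limits, the ranking by brightness and the summed marker signals, signals of different probe sets were not compared.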

Additional observations from a re-analysis of the deposited data

How the results depend on the processing

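Over 21 alternatives, 4024 of 4050 values of the 40 tested members kept their side of the threshold, 18 lost a call and 8 gained one. No called value changed sign, while 196 values changed sign without a call. At 20 weeks, 2 members were called. The count was 1 without a filter on dim probe sets, and 0 without an intensity trend, without both doubted arrays and with those groups fitted alone. Leaving out single arrays gave 0 to 2. Over both ages 1 was called, and 2 with median scaling, with the 60% dimmest left out or with the replicate block, and 1 to 3 without single arrays. At 10 weeks none was called, and 0 to 1 without single arrays (Abca8a, without diabetic replicate 1 of 20 weeks, adjusted p = 0.0405). The cause of these changes was not tested. Abcc2 passed over both ages with the replicate block (0.44, adjusted p = 0.0386). Deviations of same-numbered arrays of different groups correlated between -0.151 and 0.149, with 4 of 18 pairs above 0.1. Of the 12 arrays, 7 correlated best with one of their own number in another group. These values show no strong pairing and do not settle whether a weak one was present. Median scaling moved the median of all probe sets by 0.14 in the interaction, where the members' median was 0.17. The members' median diabetes difference stayed above 0 with both other scalings. Dim signals limit what can be said of 23 of the 50 probe sets.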

Other observations

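ABC proteins with other kinds of symbol were outside the rule. The peptide transporters Tap1 and Tap2 load antigen peptides for presentation. Tap2 rose over both ages (log2 0.64 ± 0.15, limma adjusted p = 0.0303), with 208.7 ± 18.7 in diabetic and 146 ± 32 in nondiabetic rats of 10 weeks and 217.6 ± 10.7 in diabetic and 132.3 ± 28.3 in nondiabetic rats of 20 weeks (SD, n = 3 each). Tap1 gave 0.47 ± 0.19 (adjusted p = 0.211), with 274.5 ± 10.9 in diabetic and 159.2 ± 62.3 in nondiabetic rats of 20 weeks. These 2 genes were tested of 3 listed, so 1 of 2 was called, against 4.47% of all probe sets.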
